A study of Mus musculus with 2 samples.

Results

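Interferon-stimulated genes are the genes that cells switch on when they sense interferon. The 36 genes described here were taken as a list by name, chosen with earlier results of these data known. Both deposited gene lists held all 36, out of 29373 genes listed in either file. Each gene was followed in every cell cluster of both libraries.

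The data are 2 single-cell RNA libraries of mouse ovary. One came from female ICR mice given water (ddH2O, the control group) and one from female ICR mice given polystyrene microplastics (PS-MP) of 0.1 µm at 1 mg per 100 µL. Both groups were gavaged daily for 35 days from 3 weeks of age, so that ovaries were taken at about 8 weeks, 24 h after the last gavage, and the tissue was digested with enzymes to free the cells. The protocol states n = 16 mice for the assay. Cells of different mice were pooled, and the mouse of origin of a cell is not recorded in the files used here. Each group is therefore 1 sample, no test between groups is possible, and every interval below covers counting error only.

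Interferons are secreted proteins that bind receptors on neighbouring cells. Type I and type III interferons act through JAK1 and TYK2 and a complex that holds STAT2 and IRF9 and binds the interferon-stimulated response element (ISRE). Type II interferon acts through JAK1 and JAK2 on genes with the gamma-activated site (GAS). The products sense viral RNA, block viral entry and copying, or, as guanylate-binding proteins and immunity-related GTPases, coat the vacuoles of intracellular microbes. In the ovary, vessels, stroma and resident macrophages lie outside the follicle, whose granulosa layer has no vessels.

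The list mixes genes with and without these elements close to the start site. RefSeq (GRCm38.p6) promoter windows matched 27 of the 36 genes by symbol. In the 250 bases before the start, the ISRE pattern GAAANNGAAA, on either strand and with overlapping matches counted, was present in 14 of the 27 (51.9%), against 936 of 27025 genes with a window (3.46%). The GAS pattern TTCNNNGAA, which reads the same on both strands and may overlap an ISRE match, was present in 8 of the 27 (29.6%), against 8.13% of all genes. A match is a match of letters and not a shown binding site. The stretches below are from GTPase genes that were higher in several cell classes, effector genes that were higher in macrophages, and 2 genes of smaller ratio; each is on the gene's strand, 5′ to 3′, wholly upstream of the start, with the matches in capitals.
Gbp2 (chr3:142620584-142620633, plus strand): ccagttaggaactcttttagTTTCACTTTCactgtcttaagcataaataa
Irgm1 (chr11:48871421-48871470, minus strand): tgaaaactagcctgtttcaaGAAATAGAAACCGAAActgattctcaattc
Igtp (chr11:58199491-58199551, plus strand): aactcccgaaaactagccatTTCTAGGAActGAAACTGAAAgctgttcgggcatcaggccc
Isg15 (chr4:156200855-156200916, minus strand): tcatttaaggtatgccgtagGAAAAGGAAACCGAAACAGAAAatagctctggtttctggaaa
Ifit1 (chr19:34640765-34640833, plus strand): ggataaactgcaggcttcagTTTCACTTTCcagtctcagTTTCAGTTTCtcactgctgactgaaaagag
Rsad2 (chr12:26456543-26456592, minus strand): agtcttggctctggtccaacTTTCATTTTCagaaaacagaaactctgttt
Irf1 (chr11:53769904-53769952, plus strand): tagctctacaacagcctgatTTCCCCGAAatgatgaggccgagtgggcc
Ifitm2 (chr7:140955978-140956027, minus strand): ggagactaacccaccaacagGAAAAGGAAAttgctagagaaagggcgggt
Gbp2, Rsad2 and Ifitm2 held 1 ISRE match each, Irgm1 and Ifit1 held 2, and Isg15 held 3 that overlap. Igtp held 1 ISRE and 1 GAS match, and Irf1 held a GAS match only. Among the interferon-inducible GTPases, 5 of the 6 with a window held the ISRE pattern. Only genes with a match are shown. Counts were also made for genes measured in at least 2 of the 4 non-granulosa classes described below. At least 1.5-fold higher in 2 or more classes were 6 of 12 with the ISRE pattern and 4 of 10 without it. For GAS these counts were 2 of 6 and 8 of 16, where 0.692% of all genes were higher in at least 2 classes. A link between pattern and ratio was not tested.

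The control library held 15373 cells and 160257194 unique molecular identifiers (UMIs, each standing for 1 captured mRNA), and the PS-MP library 15056 cells and 145474989 UMIs. After filters on genes, mitochondrial share and doublets, 14538 and 14412 cells remained, with median depths of 9502.5 and 8643 UMIs, and the libraries shared 3 cell barcodes. Clustering that left out the 36 genes and the pathway lists gave 19 clusters, and 11 of them had at least 200 cells in each library. These were 7 granulosa-like clusters, kept apart by number, and the stromal fibroblast-like, theca-like, macrophage or monocyte-like and blood endothelial-like clusters. Of the granulosa-like clusters, 0, 4, 5 and 8 were led by no granulosa marker. One luteal-like cluster, number 6, held 10 control and 1903 PS-MP cells and was not compared.

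Levels are CPM, the UMIs of a gene per 1000000 UMIs of a cluster. In the control library the summed level of the 36 genes was highest among the compared clusters in blood endothelial-like cells, at 3846 CPM. It was 2301 CPM in stromal fibroblast-like, 2276 CPM in macrophage or monocyte-like and 1819 CPM in theca-like cells. In the 7 granulosa-like clusters it lay between 693 and 1120 CPM, and in oocyte-like cells it was 582 CPM. Stromal and macrophage levels differed by less than their counting intervals (2279 to 2323 and 2239 to 2314 CPM), while the endothelial level stood above both. Per UMI, the summed level was thus lower in each granulosa-like cluster than in the 4 other compared classes. Single genes could go the other way. Bst2 was at 187 CPM in granulosa-like cluster 0, against 138 CPM in stromal fibroblast-like and 61.8 CPM in blood endothelial-like cells.

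**Figure D1:**
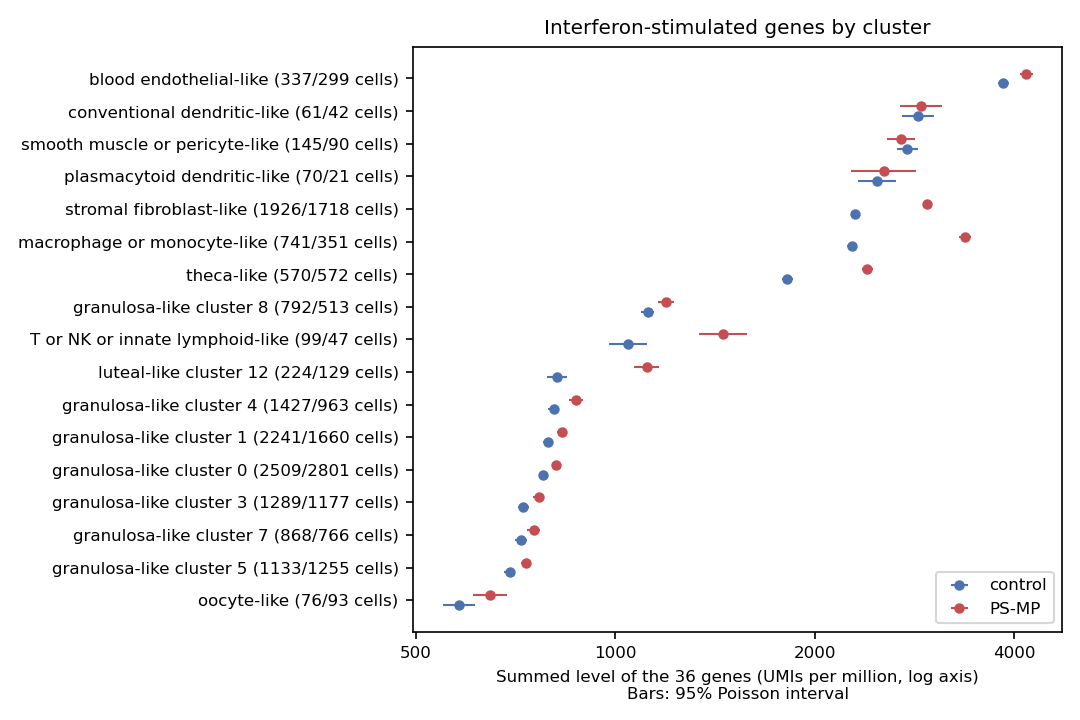
Summed level of the 36 genes (x axis, CPM, log scale) in each cluster with at least 20 cells in both libraries; points are the 2 libraries and bars 95% Poisson intervals of counting error. The granulosa-like points lie between 693 and 1193, and the stromal, theca and macrophage points of the PS-MP library lie to the right of the control points.

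Single genes had their own places in the control library, compared here within a gene and among clusters of at least 20 cells. Ifitm2 and Ifitm3, small membrane proteins that hinder viral fusion, were highest in blood endothelial-like cells, at 930 and 939 CPM; Ifitm3 was lowest, at 11.0 CPM, in granulosa-like cluster 7, and Ifitm2 was lowest in oocyte-like cells at 130.9 CPM. Bst2 (tetherin, which holds budding virus at the cell surface) was highest in plasmacytoid dendritic-like cells at 686 CPM, and so were Irf7 (65.99 CPM), Irf9 (129.3 CPM) and Stat2 (92.4 CPM), the relay and transcription factors of the pathway. Irf1, an interferon-induced transcription factor, and Irgm1, an immunity-related GTPase, were highest in theca-like cells at 673 and 102 CPM. For Irgm1 the blood endothelial-like level, 98.0 CPM, lay within the counting interval of the theca level (93.8 to 110 CPM). Ifi27l2a (146 CPM) was highest in macrophage or monocyte-like cells, and Rsad2 (viperin, 101 CPM), Mx1 (42.5 CPM) and Samhd1 (a dNTP-cleaving restriction factor, 284 CPM) in conventional dendritic-like cells. By count, 10 genes were highest in blood endothelial-like, 3 in macrophage or monocyte-like and 2 in theca-like cells, and none in a granulosa-like cluster. Another 8 were highest in conventional dendritic-like, 8 in surface epithelium-like and 5 in plasmacytoid dendritic-like cells. These 3 clusters held only 61, 20 and 70 control cells, so many of the places are uncertain. Ifi35 in surface epithelium-like cells, for example, rested on 9 UMIs (57.2 CPM, interval 26.2 to 109 CPM).

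**Figure D2:**
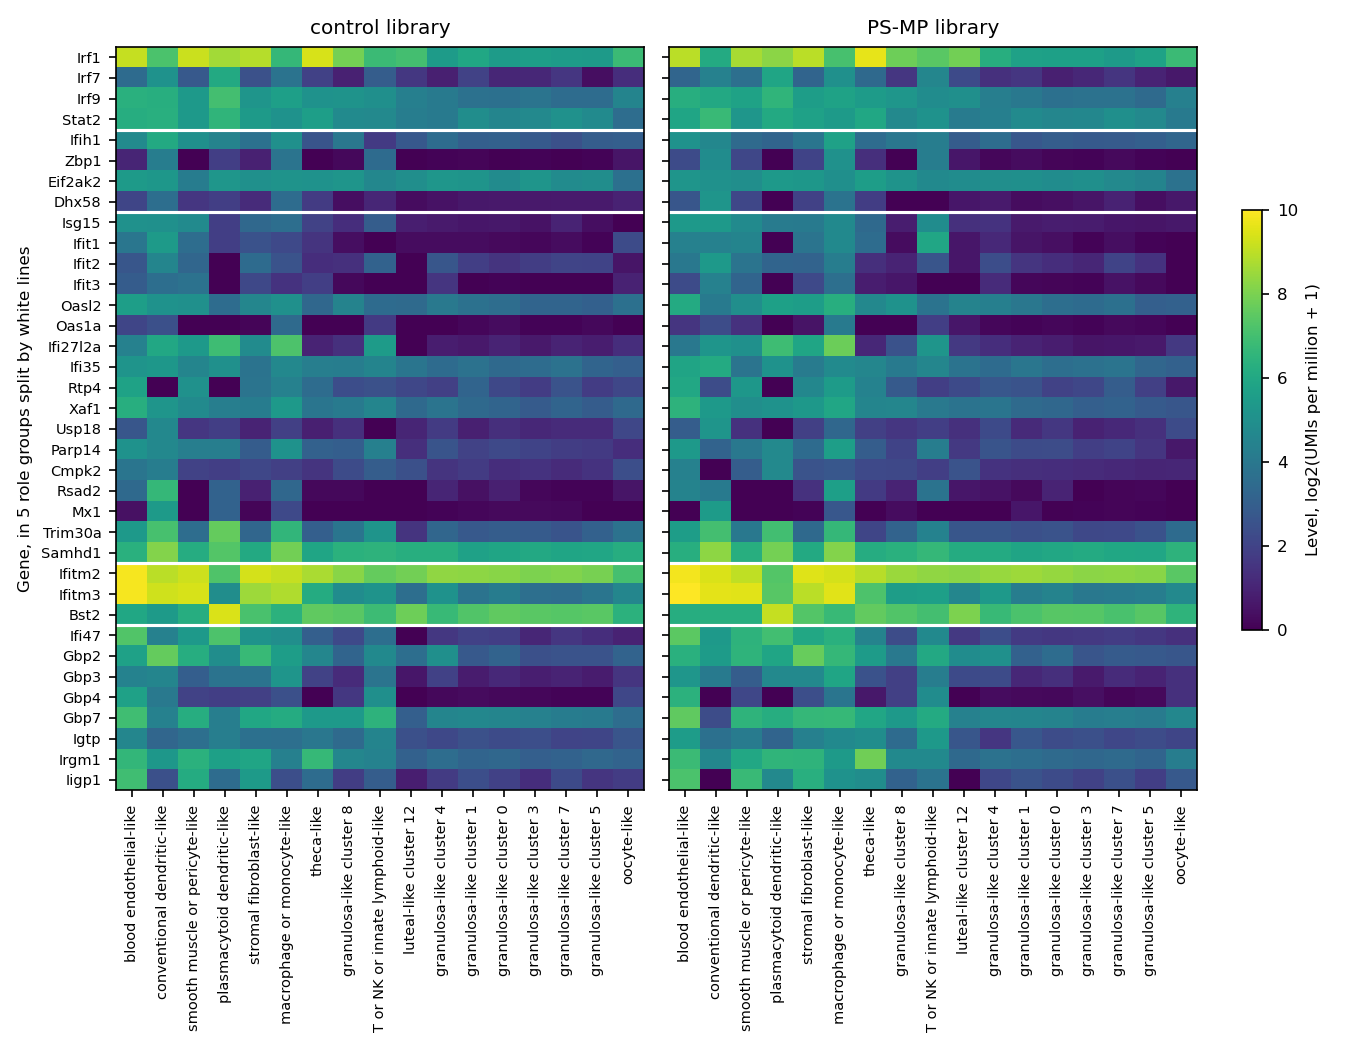
Level of each of the 36 genes (rows, in 5 groups by role; log2 of CPM plus 1) in each cluster with at least 20 cells in both libraries (columns, ordered by the summed control level), with the control library left and the PS-MP library right. Ifitm2, Ifitm3 and Irf1 are bright in blood endothelial-like and stromal fibroblast-like cells, Bst2 is brightest in plasmacytoid dendritic-like cells, and most rows are dark in the granulosa-like columns.

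Between the libraries, the summed PS-MP level stood above control by the most in macrophages, less in theca and stroma, and by less in endothelium and granulosa clusters. The summed level was 2301 CPM in control and 2954 CPM in PS-MP stromal fibroblast-like cells, a ratio of 1.28 (95% interval 1.27 to 1.30). It was 1819 and 2402 CPM in theca-like cells (ratio 1.32, 1.29 to 1.35) and 2276 and 3367 CPM in macrophage or monocyte-like cells (1.48, 1.44 to 1.52). In blood endothelial-like cells it was 3846 and 4171 CPM (1.08, 1.05 to 1.12). In the granulosa-like clusters the ratios ran from 1.05 to 1.08, with intervals that overlap that of endothelium, and those of clusters 1 and 5 were 0.98 and 0.996 without Ifitm2, Ifitm3 and Bst2. With 1 library per group, differences between mice and between library preparations cannot be told apart from the treatment.

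A gene was counted as measured in a cluster when it reached 20 CPM in either library, and as higher when its ratio was at least 1.5. In stromal fibroblast-like cells 10 of 18 measured genes were higher, against 0.796% of all genes measured there, and none was 1.5-fold lower (0.237% of all genes). In theca-like cells 9 of 18 were higher (1.2% of all genes) and none lower (1.3%). In macrophage or monocyte-like cells 15 of 28 were higher (3.75%) and none lower (1.64%). In blood endothelial-like cells 7 of 28 were higher (2.53%) and none lower (3.76%). The genes' median log2 ratio was 0.67 in stroma, 0.59 in theca, 0.68 in macrophages and 0.25 in endothelium, where the median of all genes was −0.02, −0.03, −0.01 and −0.02. The genes not measured, 18 in stroma and in theca and 8 in macrophages and in endothelium, are left out of these counts. These counts and medians describe the genes that passed the floor and support nothing by themselves, because a gene could pass through the PS-MP library alone: 3 of the 10 higher genes in stroma, 6 of 9 in theca, 8 of 15 in macrophages and 1 of 7 in endothelium did so. With 20 CPM required in the control library, a floor chosen after the values were seen, 7 of 15 genes were higher in stroma (0.557% of all genes), 3 of 11 in theca (0.541%), 7 of 20 in macrophages (2.11%) and 6 of 25 in endothelium (1.36%). At 50 CPM in either library the counts were 6 of 12, 2 of 8, 6 of 15 and 4 of 17, with no share of all genes counted at that floor. Under that floor some genes were lower, among them Trim30a in theca (7.06 and 3.24 CPM, ratio 0.46, 0.25 to 0.82) and Ifit3 in theca (2.63 and 0.76 CPM). At a line of 1.2-fold, 14 of 18 genes in stroma (4.43% of all genes), 15 of 18 in theca (7.33%), 23 of 28 in macrophages (14%) and 13 of 28 in endothelium (13.4%) were higher. In endothelium 3 genes were lower by as much, Stat2 (0.79), Ifi27l2a (0.74) and Eif2ak2 (0.83).

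Across these 4 classes 20 genes were at least 1.5-fold higher in at least 1 class, 12 in at least 2 and 8 in at least 3: Oasl2, Rtp4, Gbp2, Gbp3, Igtp, Irgm1, Iigp1 and Ifi47. Of all genes measured in any of the 4 classes, 5.33% were higher in at least 1, 0.692% in at least 2, 0.234% in at least 3 and 0.0213% in all 4. Gbp2 was the only one of the 36 at that ratio in all 4. Several of these calls passed the floor through the PS-MP library alone, such as Oasl2, Rtp4, Igtp, Iigp1 and Ifi47 in theca. Ifit2, Ifit3, Oas1a, Usp18, Mx1 and Dhx58 were under 20 CPM in all 11 compared clusters in both libraries.

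The interferon-inducible GTPases had the largest ratio of the 5 role groups in each of the 4 classes. Their summed level was 330 CPM in control and 589 CPM in PS-MP stromal fibroblast-like cells (ratio 1.79), 201 and 416 CPM in theca-like cells (2.07), 222 and 458 CPM in macrophage or monocyte-like cells (2.06), and 644 and 868 CPM in blood endothelial-like cells (1.35). All 6 measured were higher in stroma (0.796% of all genes), 5 of 6 in theca (1.2%), 6 of 7 in macrophages (3.75%) and 5 of 8 in endothelium (2.53%). Some passed the floor through the PS-MP library alone, so these counts support nothing by themselves. They were Gbp3 in stroma, Ifi47, Igtp and Iigp1 in theca, and Igtp, Irgm1 and Iigp1 in macrophages.

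Gbp2, a guanylate-binding protein that gathers on microbial vacuoles, was at 105 CPM in control and 206 CPM in PS-MP stromal fibroblast-like cells, a ratio of 1.95 (1.84 to 2.07). It was at 23.2 and 43.8 CPM in theca-like cells (1.89), 46.9 and 101 CPM in macrophage or monocyte-like cells (2.15), and 51.3 and 81.0 CPM in blood endothelial-like cells (1.58, 1.26 to 1.99). With every cell thinned to 3500 UMIs, Gbp2 was detected in 22.7% of control and 33.9% of PS-MP stromal cells. In granulosa-like cluster 3, where its level was lowest, it was detected in 1.32% and 1.78% of cells. Thus both the level and the share of stromal cells with the transcript were higher in the PS-MP library.

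Irgm1, which takes part in autophagy and in control of the other immunity-related GTPases, was at 102 CPM in control and 229 CPM in PS-MP theca-like cells, a ratio of 2.25 (2.04 to 2.49). The share of thinned theca-like cells with an Irgm1 UMI was 22.1% and 39.7%. Irgm1 was at 58.4 and 90.9 CPM in stroma (1.56), 19.4 and 42.5 CPM in macrophages (2.19), and 98.0 and 112 CPM in endothelium (1.15, 0.96 to 1.37). The endothelial interval includes 1, and the endothelial control level was already near that of theca.

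Iigp1 and Ifi47, effector GTPases of the same family, had their lowest ratio in endothelium, as Irgm1 did. Iigp1 was at 4.30 and 33.1 CPM in macrophages (7.68, 4.93 to 12.3), 10.5 and 28.8 CPM in theca (2.74), 43.2 and 78.8 CPM in stroma (1.83) and 123 and 142 CPM in endothelium (1.16). Ifi47 was at 29.96 and 81.1 CPM in macrophages (2.71), 7.23 and 21.2 CPM in theca (2.93), 33.8 and 63.5 CPM in stroma (1.88) and 156 and 178 CPM in endothelium (1.14). For both, the endothelial cells had the highest control level and the lowest ratio of the 4 classes. Members of these families have close copies, and how the counting treated reads shared between them is not given in the sources used here, so single-gene values of Gbp, Irg, Ifit and Ifitm genes are uncertain to that extent.

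Igtp (Irgm3), Gbp3, Gbp4 and Gbp7, like Gbp2, passed 1.5-fold in endothelium. Igtp was at 23.3 and 45.3 CPM there (1.94, 1.40 to 2.71), Gbp3 at 20.5 and 36.7 CPM (1.79), Gbp4 at 51.7 and 85.4 CPM (1.65) and Gbp7 at 120 and 186 CPM (1.55). Igtp was also higher in theca (14.5 and 28.8 CPM, 1.99) and in macrophages (11.6 and 26.0 CPM, 2.23). Gbp3 was higher in stroma (13.2 and 25.3 CPM, 1.92) and macrophages (36.02 and 58.3 CPM, 1.62). Gbp7 reached 1.66 in stroma (60.9 and 100.8 CPM) and stayed just under the line in theca (1.44) and macrophages (1.47).

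**Figure D3:**
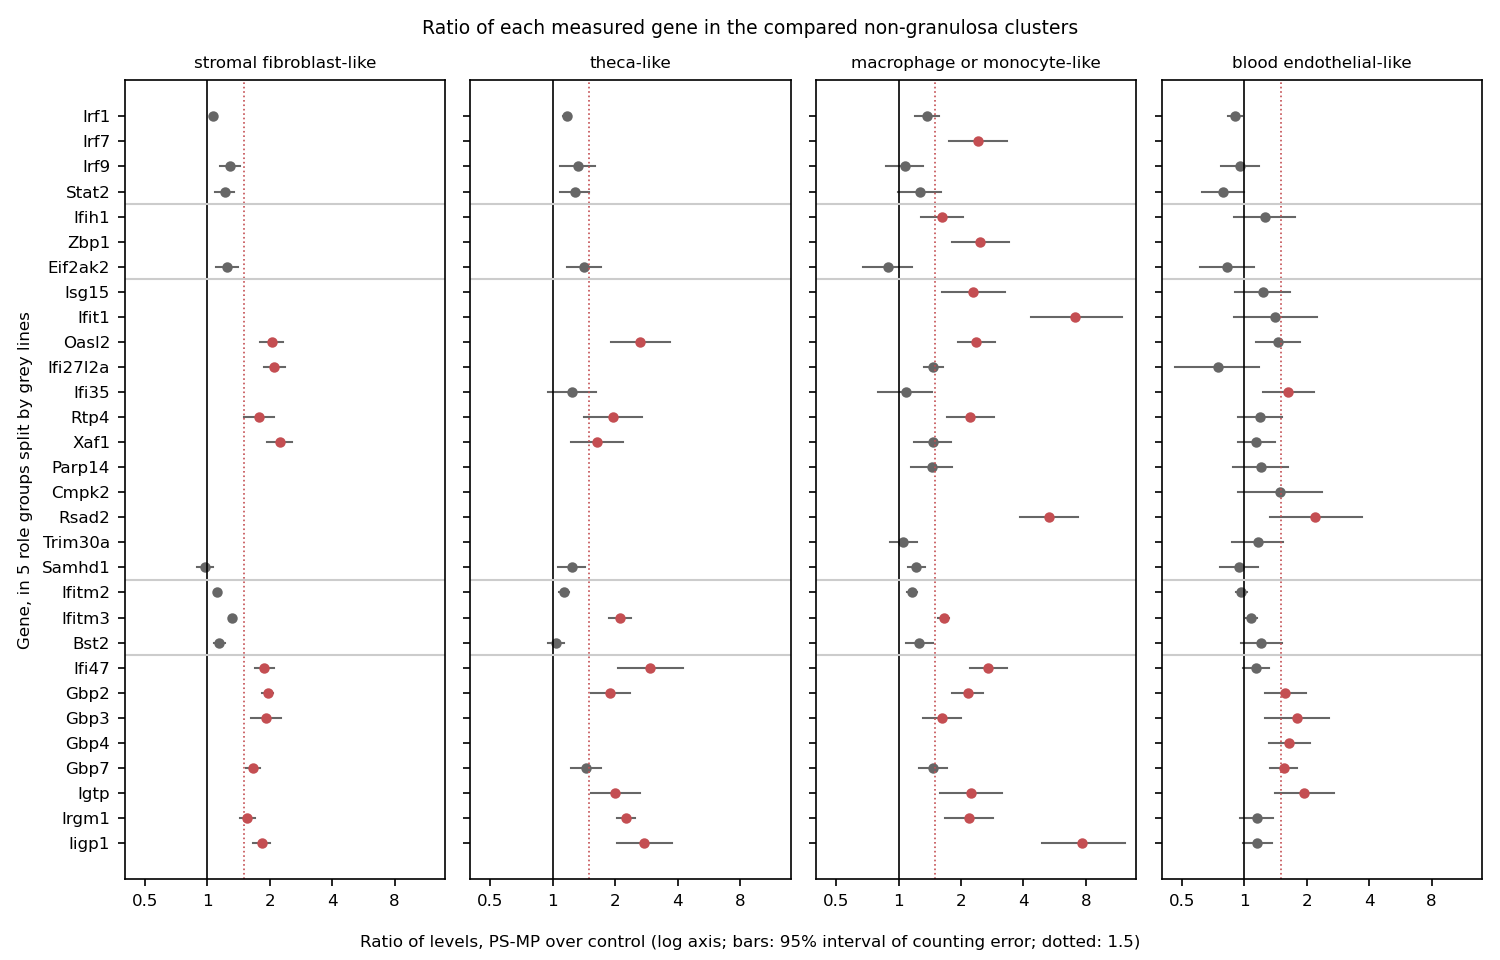
Ratio of PS-MP over control level (x axis, log scale; bars 95% intervals of counting error) for each gene measured in a class, in 4 panels by class and 5 groups by role; red points are at 1.5 or more. The GTPases at the bottom lie right of 1.5 in most panels, and Irf1, Irf9, Stat2 and Eif2ak2 lie left of 1.5 in all 4. Ifit1, Rsad2 and Iigp1 reach ratios above 5 in macrophage or monocyte-like cells.

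The 17 antiviral effectors and ISG15-conjugation genes had smaller ratios. Their summed level was 211 and 321 CPM in stroma (ratio 1.52), 137 and 204 CPM in theca (1.48), 671 and 1015 CPM in macrophages (1.51) and 476 and 583 CPM in endothelium (1.22). Of those measured, 4 of 5 were at least 1.5-fold higher in stroma (0.796% of all genes), 3 of 5 in theca (1.2%), 5 of 11 in macrophages (3.75%) and 2 of 12 in endothelium (2.53%). Here too some passed the floor through the PS-MP library alone, and the counts support nothing by themselves. They were Rtp4 and Xaf1 in stroma, Oasl2, Rtp4 and Xaf1 in theca, Isg15, Ifit1 and Rsad2 in macrophages, and Rsad2 in endothelium.

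Oasl2, related to the oligoadenylate synthetases, was at 22.9 and 46.7 CPM in stroma (2.04, 1.80 to 2.31), 9.20 and 24.2 CPM in theca (2.63), 31.7 and 75.2 CPM in macrophages (2.37) and 47.4 and 69.0 CPM in endothelium (1.46). Xaf1, a pro-apoptotic protein, was at 17.5 and 39.1 CPM in stroma (2.23) and 13.96 and 22.7 CPM in theca (1.63), with smaller ratios of 1.46 in macrophages and 1.15 in endothelium. Rtp4 was higher in stroma (13.4 and 23.8 CPM, 1.78), theca (10.7 and 20.8 CPM, 1.95) and macrophages (20.1 and 44.5 CPM, 2.22). Oasl2 and Rtp4 thus passed 1.5-fold in stroma, theca and macrophages, and Xaf1 in stroma and theca.

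Other effectors differed by class. Ifi27l2a was at 27.4 and 57.8 CPM in stroma (2.10, 1.88 to 2.36), at 146 and 215 CPM in macrophages (1.47), and at 20.1 and 15.0 CPM in endothelium, where the interval of its ratio (0.46 to 1.17) includes 1. Ifi35 was at 34.8 and 56.9 CPM in endothelium (1.63) and at 24.4 and 26.4 CPM in macrophages (1.08). Samhd1 was at 67.2 and 65.5 CPM in stroma (0.97, 0.89 to 1.06) and 230 and 281 CPM in macrophages (1.22). Trim30a, at 94.2 and 99.2 CPM in macrophages, had a ratio of 1.05.

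The classical early effectors were low and uneven. Isg15, the ubiquitin-like modifier that names the family, was at 11.3 and 26.0 CPM in macrophages (2.30, 1.62 to 3.26) and 32.7 and 40.0 CPM in endothelium (1.23, 0.90 to 1.67). Under the 20 CPM line it was at 9.52 and 16.5 CPM in stroma and 2.96 and 9.72 CPM in theca. In macrophages Ifit1, which binds viral RNA caps, was at 3.67 and 26.0 CPM (7.09) and Rsad2, which makes a chain-terminating nucleotide, at 9.24 and 48.8 CPM (5.28).

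Those 2 macrophage ratios rested on few cells. Of the 66 Ifit1 UMIs in PS-MP macrophages, 34 came from 1 cell, and 18 cells held any, against 15 cells and 23 UMIs in control. Of the 124 Rsad2 UMIs, 45 came from 1 cell and 96 from 5 cells, and 23 cells held any, against 20 cells and 58 UMIs in control. Iigp1 was spread more evenly, with 84 UMIs in 36 PS-MP cells and 27 UMIs in 15 control cells. In stroma the 5 cells with most Gbp2 held 3.79% of its PS-MP UMIs.

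The membrane factors differed less. Ifitm3 was at 69.6 and 146 CPM in theca (2.10, 1.87 to 2.37), 451 and 743 CPM in macrophages (1.65), 374 and 493 CPM in stroma (1.32) and 939 and 1018 CPM in endothelium (1.08). Ifitm2 ratios lay between 0.97 in endothelium and 1.16 in macrophages, and Bst2 ratios between 1.04 in theca and 1.26 in macrophages. Without Ifitm2, Ifitm3 and Bst2 the summed ratio was 1.39 in stroma, 1.39 in theca, 1.58 in macrophages and 1.14 in endothelium.

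The relay and transcription factors and the RNA sensors were nearer to the control level. Irf1 was at 467 and 500 CPM in stroma (1.07), 673 and 784 CPM in theca (1.16), 99.8 and 137 CPM in macrophages (1.37) and 557 and 504 CPM in endothelium (0.91, 0.84 to 0.98). Stat2 was at 42.7 and 51.7 CPM in stroma (1.21) and at 74.0 and 58.4 CPM in endothelium (0.79, 0.63 to 0.99). Irf9 ratios ran from 0.95 in endothelium to 1.31 in theca. Irf7, the amplifier of type I interferon output, was measured in macrophages only, at 13.1 and 31.5 CPM (2.41, 1.75 to 3.32). It passed the floor there through the PS-MP library alone. Among the sensors, Ifih1 (MDA5) was at 31.6 and 51.2 CPM in macrophages (1.62) and Zbp1, a sensor of Z-form nucleic acid, at 13.2 and 32.7 CPM (2.47), while Eif2ak2 (PKR), at 34.1 and 30.3 CPM, had a ratio of 0.89 whose interval (0.68 to 1.16) includes 1.

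Per cell, a score was taken as UMIs of the 36 genes per 1000000 UMIs of the cell. The median score was 2051 in control and 2612 in PS-MP stromal fibroblast-like cells, 1631 and 2085 in theca-like, 2153 and 2842 in macrophage or monocyte-like, 3407 and 3701 in blood endothelial-like, and 748 and 789 in granulosa-like cluster 1 cells. The cells at or above a score of 1000 made up 89.2% of control and 93.6% of PS-MP stromal cells, 77.2% and 84.3% of theca-like, 85.8% and 90.03% of macrophage or monocyte-like and 94.4% and 97.7% of blood endothelial-like cells. After thinning to 3500 UMIs, which left out no cell, the shares were 84.8% and 89.9%, 73.5% and 81.8%, 83.1% and 85.5%, and 93.8% and 98.3%. In granulosa-like cluster 0 the thinned shares were 31.4% and 31.2%, and in the other 10 compared clusters the PS-MP share was the higher. The score is a range and the line divides no cell type: 102 control and 65 PS-MP stromal cells scored between 900 and 1100.

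**Figure D4:**
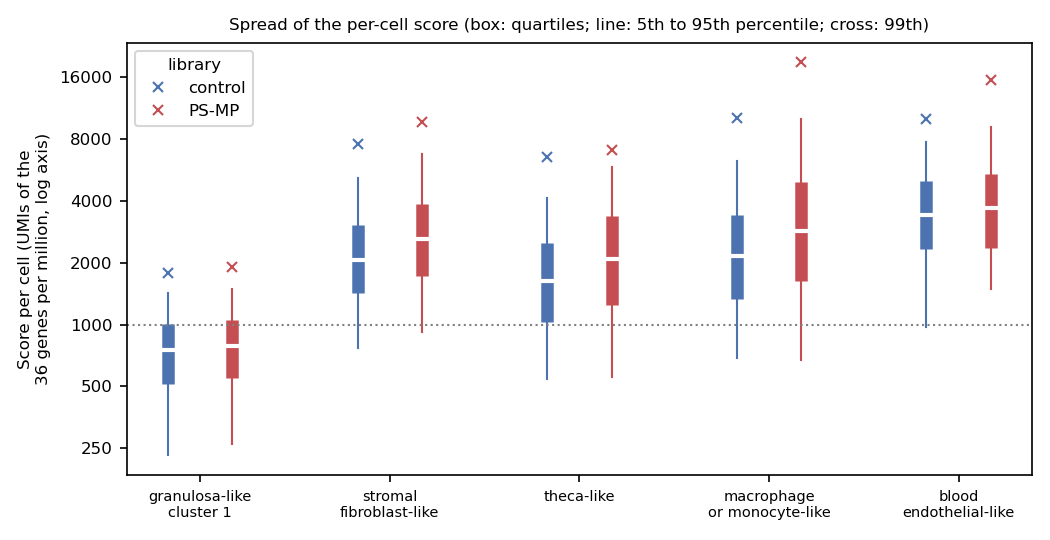
Per-cell score (y axis, UMIs of the 36 genes per 1000000, log scale) in granulosa-like cluster 1 and the 4 other compared classes; boxes span the quartiles with the median in white, lines the 5th to 95th percentile, crosses mark the 99th, and the dotted line is the score of 1000. The upper ends lie higher in the PS-MP library, most in macrophage or monocyte-like cells, where the 95th percentile is 6226 in control and 10058 in PS-MP.

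Among the compared clusters, the share of cells with several effector transcripts at once was highest in macrophages, then endothelium. With every cell at 3500 UMIs, 3 or more of the 17 effectors were detected in 23.9% of control and 36.2% of PS-MP macrophage or monocyte-like cells (exact intervals 20.9 to 27.1% and 31.1 to 41.5%). The shares were 17.8% and 23.4% in blood endothelial-like, 4.05% and 8.61% in stromal fibroblast-like (3.21 to 5.03% and 7.33 to 10.04%) and 1.93% and 4.20% in theca-like cells. In the granulosa-like clusters they were between 0.0883% and 1.95%. Cells with 6 or more effectors numbered 17 of 741 control and 27 of 351 PS-MP macrophages (2.29% and 7.69%), and 2 of 1926 and 13 of 1718 stromal cells. In macrophages the 5% of cells with the most effector UMIs held 20.1% of them in control and 29.2% in PS-MP; in stroma these shares were 24.3% and 25.9%.

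**Figure D5:**
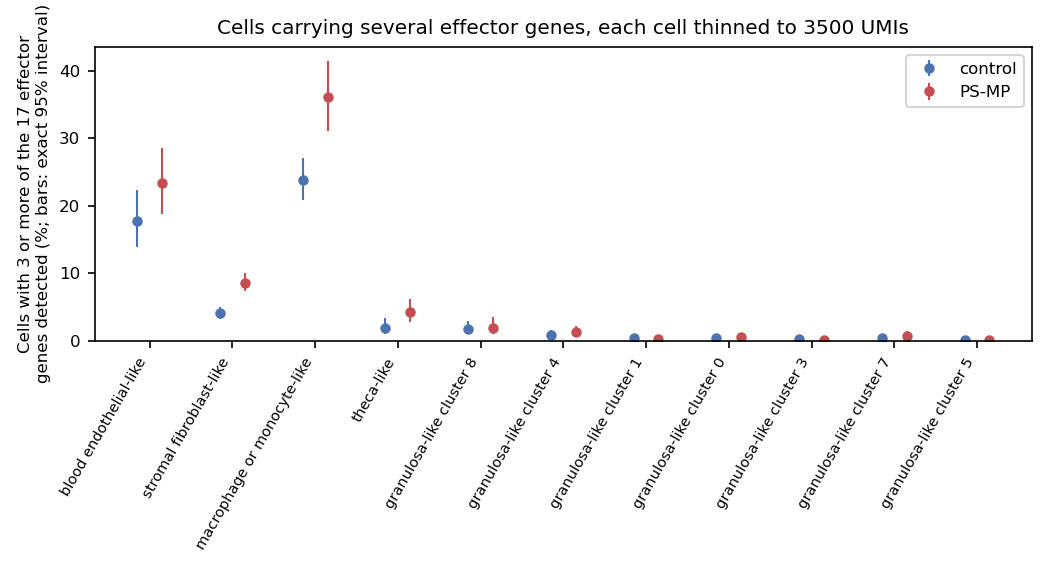
Share of cells (y axis, %) in which 3 or more of the 17 effector genes were detected after thinning to 3500 UMIs, for the 11 compared clusters and both libraries; bars are exact 95% binomial intervals. The intervals of the 2 libraries do not overlap in macrophages or in stromal cells. These intervals count cells and cover counting error only. They cannot tell the treatment from differences between mice or between library preparations. The granulosa-like clusters lie under 2%.

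In the granulosa-like clusters 13 of the 36 genes were measured in at least 1 cluster. Clusters 0, 1, 3, 5 and 7 had no gene at 1.5-fold or more (background 0.473%, 0.542%, 0.656%, 0.46% and 0.828% of all genes), cluster 4 had 1 of 8 (0.662%) and cluster 8 had 2 of 12 (0.881%). At 1.2-fold, 1, 0, 0, 2, 1, 0 and 4 genes were higher in clusters 0, 1, 3, 4, 5, 7 and 8, against 3.77%, 5.9%, 6.66%, 5.23%, 3.41%, 7.24% and 8.15% of all genes. No measured gene was 1.5-fold lower, against 0.459%, 1.6%, 0.807%, 0.446% and 1.88% of all genes in those 5 clusters, 0.386% in cluster 4 and 0.583% in cluster 8. Under the 20 CPM floor, Trim30a had ratios below 1 in all 7 clusters, from 0.55 (0.38 to 0.80) in cluster 3 to 0.74 in cluster 1. Parp14 in cluster 8 was at 6.96 and 3.02 CPM (0.43, 0.21 to 0.83), while Iigp1 there was at 2.52 and 7.80 CPM (3.10). The measured genes that were higher were Irf1 in cluster 4 (ratio 1.73) and Ifitm3 and Oasl2 in cluster 8 (1.66 and 1.59). Ifitm2 was measured in all 7 clusters, from 247 to 321 CPM in control and 294 to 366 CPM in PS-MP, with ratios of 1.08 to 1.21. Bst2, at 106 to 187 CPM in control, had ratios of 0.86 to 0.99, and Eif2ak2, at 27.5 to 36.8 CPM, of 0.75 to 1.01. The granulosa medians ran from −0.09 to 0.06 on the log2 scale. Over the whole library the summed level was 1145 CPM in control and 1192 CPM in PS-MP (ratio 1.04), and 1146 and 1282 CPM (1.12) once luteal-like cluster 6, which stood at 698 CPM in PS-MP, was left out. The thinned share of cells at the score of 1000 was 44.6% in control and 42.9% in PS-MP with that cluster, and 44.6% and 46.1% without it.

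Interferons were scarcely detected and the receptors were near or below their control level. Of 10 interferon genes looked up, 6 were in the files, and no compared cluster reached 20 CPM for any. Ifng, the type II interferon, had 18 UMIs in 12 control cells, 14 of these UMIs in the T, NK or innate lymphoid-like cluster, and 0 in the PS-MP library, whose 47 such cells compare with 99 in control. In control, Ifnb1 (5 UMIs), Ifna2 (7) and Ifnl2 (5) were each found in 1 plasmacytoid dendritic-like cell. The PS-MP library held 1, 0 and 1 UMIs of these genes, and 21 such cells against 70 in control. Ifnl3 had 6 UMIs in control, all in luteal-like cluster 12, and 11 in PS-MP, 9 of them in luteal-like cluster 6. The 6 receptor genes summed to 220 and 206 CPM in stroma (0.94), 203 and 211 CPM in theca (1.04), 625 and 594 CPM in macrophages (0.95) and 332 and 314 CPM in endothelium (0.95), and none of those that reached 20 CPM was 1.5-fold higher. Ifnar1 was lower in PS-MP macrophages (72.03 and 49.99 CPM, 0.69) and Ifngr1 in PS-MP endothelium (88.3 and 60.8 CPM, 0.69).

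Jak1, the kinase shared by the receptors, had ratios of 0.92, 0.98, 1.08 and 0.99 in the 4 classes. Socs1, an induced inhibitor of the receptor kinases, was at 40.9 and 61.6 CPM in theca (1.51) and 107 and 127 CPM in stroma (1.18).

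Further interferon-stimulated genes, a list of 39 of which 38 were in the files, were higher to a smaller degree. In stroma 2 of 15 measured were at least 1.5-fold higher (0.796% of all genes), in theca 4 of 10 (1.2%), in macrophages 5 of 22 (3.75%) and in endothelium 2 of 21 (2.53%). The higher genes in theca all passed the floor through the PS-MP library alone, so these counts support nothing by themselves. None was 1.5-fold lower, and their medians were 0.38, 0.52, 0.40 and 0.23 on the log2 scale. Irgm2, the GTPase partner of Irgm1, was at 43.3 and 74.2 CPM in stroma (1.71), 98.9 and 144 CPM in theca (1.46) and 35.9 and 65.6 CPM in endothelium (1.83). Ifi44 was at 30.2 and 59.8 CPM in endothelium (1.98), while Slfn5 was at 85.4 and 137 CPM in macrophages (1.61) and lower in PS-MP endothelium, at 234 and 184 CPM (0.79, 0.69 to 0.89). Another list covered nucleic acid sensing upstream of interferon, with adaptors, kinases and transcription factors beside the sensors themselves. Of its measured genes, 1 of 7 was at least 1.5-fold higher in stroma and 0 of 5 in theca. In macrophages it was 1 of 10 and in endothelium 0 of 6. None was 1.5-fold lower, beside the same shares of all genes.

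Markers of other cells also moved within these classes. In macrophage or monocyte-like cells the 8 stromal fibroblast markers were all higher in the PS-MP library and summed to 183 and 414 CPM, the 6 theca markers to 95.5 and 248 CPM (5 higher, Insl3 at 0 in both) and the 10 luteal markers to 730 and 1423 CPM (8 higher). The stromal sum was 1.08% and 2.26% of its level in stromal cells, and the theca sum 1.57% and 4.61% of its level in theca-like cells. Stromal cells carried theca markers at 20.7% and 21.7% of the theca-like level, and theca-like cells carried stromal markers at 15.7% and 14.01% of the stromal level. In blood endothelial-like cells, which also carried lymphatic markers, the 5 lymphatic markers summed to 632 and 338 CPM, the stromal markers to 356 and 222 CPM and the luteal markers to 299 and 656 CPM. In stromal cells the macrophage markers summed to 42.5 and 27.7 CPM and were lower in the PS-MP library for 7 of 8, and in theca-like cells to 23.3 and 14.5 CPM. The 7 smooth muscle or pericyte markers summed to 507 and 708 CPM in stromal cells, all higher. The part of these shifts in the results was not tested.

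Finer clusters within a class gave like ratios. At a clustering resolution of 1.0 the stromal fibroblast-like cells lay in 3 clusters with summed ratios of 1.26, 1.27 and 1.29. The third of these (493 control and 439 PS-MP stromal cells) scored higher on theca than on stromal markers. It also held 77 control and 65 PS-MP theca-like cells, with a ratio of 1.37, and the other theca-like cells lay in a cluster that scored higher on luteal than on theca markers, at 1.30. The macrophage or monocyte-like cells split into C1q-expressing cells (663 control and 295 PS-MP, ratio 1.56) and a cluster with neutrophil and antibody genes (77 and 56 cells, ratio 1.49).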

How the data were processed

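The authors deposited, per sample, a matrix of UMI counts per gene and cell made on the BD Rhapsody system, per the labels' protocols; the submitters' processing notes name GRCm39 and Seurat. The sources used here do not name the counting program or its treatment of shared or antisense reads. Cells with at least 500 genes and at most 25% mitochondrial counts were kept, and doublets called with Scrublet through Scanpy 1.11.5 (expected rate 0.05) were removed (2.12% of control and 2.42% of PS-MP cells). Clusters came from 2000 variable genes without the listed genes, 30 components, 15 neighbours and Leiden resolution 0.5, with no batch correction. A cluster was named for its best-scoring marker list (at least 3 markers at 20 CPM); the scoring rule was chosen once cluster values had been seen. Ratios of CPM have exact conditional binomial 95% intervals, levels exact Poisson and shares Clopper-Pearson intervals, checked on simulated counts. UMI totals per library are given in the text and set the precision. The 36 genes and the other gene lists were chosen with earlier results of these data known. All 36 may be named, as may ligands, receptors and kinases, and of the longer lists up to 4 per class with the largest ratio at 50 CPM or more. Alternatives covered the cell filters, doublets, resolution, thinning, weighting, scaling, floor, fold and pseudocount. A gene of the signalling list is not reported here.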

Additional observations from a re-analysis of the deposited data

How the results depend on the processing

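In stroma, theca, macrophages and endothelium the summed ratio stayed above 1 and the median log2 ratio above 0 under every alternative run. The summed ratio in stroma was 1.26 at resolution 1.0, 1.265 (listed genes kept to cluster), 1.266 (thinned cells), 1.262 (cells weighted alike), 1.305 (scaled to the median gene) and 1.385 (without Ifitm2, Ifitm3 and Bst2). In theca it was 1.373 at no more than 10% mitochondrial counts and 1.39 without those 3 genes. In macrophages it was 1.54 at the mitochondrial limit, 1.426 with doublets kept, 1.563 at resolution 1.0 and 1.581 without the 3 genes. In endothelium it was 1.122, 1.134 (cells weighted alike) and 1.136 (without the 3 genes). Some runs lowered the ratio, and the lowest values were 1.066 in endothelium and 1.304 in theca. In granulosa-like clusters 1 and 5 leaving out the 3 genes took it from 1.05 and 1.06 to 0.9811 and 0.9958. Genes at least 1.5-fold higher numbered 6, 2, 6 and 4 (stroma, theca, macrophages, endothelium) at a floor of 50 CPM, 21 and 19 in stroma and theca with no floor, and 7, 3, 7 and 6 at 20 CPM in the control library, a floor added after seeing the data. No share of all genes was counted at 50 CPM or with no floor, so those counts cannot be set against one. The counts with no floor also take in genes of few UMIs. At a 1.2-fold line they numbered 15 in theca (7.33% of all genes), 23 in macrophages (14%) and 13 in endothelium (13.4%). No paired analysis was possible because each group is 1 library. Low counts limit Ifit2, Ifit3, Oas1a, Usp18, Mx1 and Dhx58 most.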

Other observations

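Clusters too small or too uneven to compare also carried the genes. Surface epithelium-like cells (20 control and 12 PS-MP cells) had the highest summed level in the control library, 4792 CPM, and stood at 9019 CPM in the PS-MP library. Gbp2 made up 1989 CPM of that level in control and 4486 CPM in PS-MP, from 313 and 471 UMIs, and Oasl2 445 and 676 CPM; in no other cluster of the control library did Gbp2 pass 199 CPM, its level in conventional dendritic-like cells. Luteal-like cluster 12 (224 and 129 cells, led by Akr1c18 and Ptgfr) was at 816 and 1115 CPM, with Irf1 at 126 and 234 CPM and Gbp2 at 11.1 and 28.0 CPM. The T, NK or innate lymphoid-like cluster (99 and 47 cells) was at 1045 and 1455 CPM. Smooth muscle or pericyte-like cells (145 and 90) were at 2759 and 2702 CPM, a ratio of 0.98. Conventional and plasmacytoid dendritic-like cells were at 2864 and 2891 CPM and at 2484 and 2542 CPM.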
